A study of Homo sapiens with 30 samples.

Results

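The genes described here are those of Wnt supply in the human embryonic stem cell line RUES2: 8 genes for Wnt ligands (WNT3, WNT3A, WNT4, WNT5A, WNT5B, WNT6, WNT8A and WNT11), PORCN and WLS. These 10 genes were chosen by symbol, with earlier results of these data known, from the 27348 genes present in both RNA count tables. All 16 RNA libraries, 2 in each of 8 groups, were used, and every cell grew in TeSR E7 medium with rock inhibitor. At 48 h the groups were WNT_CPI_ACT (Wnt3a and CPI-203, then Activin A), WNT_ACT (Wnt3a, then Activin A), WNT_E7 (Wnt3a, then medium alone) and E7_ACT (medium, then Activin A). At 24 h they were WNT_CPI (Wnt3a and CPI-203), WNT (Wnt3a), E7_CPI (CPI-203) and E7 (medium alone). Wnt3a was given at 100 ng/mL and CPI-203 at 1 µM during day 1, and Activin A at 10 ng/mL during day 2. CPI-203 is an inhibitor of BET proteins, readers of acetylated chromatin that promote transcription. Activin A is a ligand of the TGF-beta family that drives pluripotent cells towards endoderm. The labels do not say that replicates of a group came from separate cultures. What a p-value measures here is thus the spread between libraries, which may be technical.

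Wnt ligands are secreted glycoproteins that carry a lipid. PORCN, an acyltransferase of the endoplasmic reticulum, attaches the lipid, and WLS, a membrane carrier, binds the lipid-bearing ligand and takes it to the cell surface, after which the retromer complex returns WLS for reuse. Outside the cell, ligands such as WNT3 and WNT3A bind Frizzled and LRP receptors and stabilise beta-catenin, whereas WNT5A, WNT5B and WNT11 are better known for signalling to the cell skeleton through receptors such as ROR2. In mouse embryos Wnt3 is required to form the primitive streak, the site where mesoderm and endoderm arise. The added Wnt3a was a protein, so the WNT3A values below are transcripts of the cells' own gene.

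Promoter sequence is shown for WLS and WNT5B, the 2 members with the highest CPM among those called higher in WNT than in E7, and for PORCN, which the fit of all groups called in no comparison. Each is a RefSeq window of 300 bases on GRCh38.p14, 250 before and 50 after an annotated start, printed 5′ to 3′ on the gene's strand. Capitals mark CTTTGA, the core letters of the TCF/LEF motif of beta-catenin's DNA-binding partners, searched on both strands. WLS lies at chr1:68232474-68232773 (minus strand), WNT5B at chr12:1616806-1617105 (plus strand) and PORCN at chrX:48509534-48509833 (plus strand).
WLS: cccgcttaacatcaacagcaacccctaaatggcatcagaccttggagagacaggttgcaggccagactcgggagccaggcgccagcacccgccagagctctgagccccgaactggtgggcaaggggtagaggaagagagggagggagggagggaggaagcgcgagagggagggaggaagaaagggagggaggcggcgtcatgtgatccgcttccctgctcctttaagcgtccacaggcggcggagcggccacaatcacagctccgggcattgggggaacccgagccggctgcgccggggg
WNT5B: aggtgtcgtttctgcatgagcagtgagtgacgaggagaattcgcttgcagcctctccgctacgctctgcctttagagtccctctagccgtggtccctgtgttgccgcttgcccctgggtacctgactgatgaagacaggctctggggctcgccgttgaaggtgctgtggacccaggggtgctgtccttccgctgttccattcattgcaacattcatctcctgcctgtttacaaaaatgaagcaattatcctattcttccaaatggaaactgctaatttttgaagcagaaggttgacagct
PORCN: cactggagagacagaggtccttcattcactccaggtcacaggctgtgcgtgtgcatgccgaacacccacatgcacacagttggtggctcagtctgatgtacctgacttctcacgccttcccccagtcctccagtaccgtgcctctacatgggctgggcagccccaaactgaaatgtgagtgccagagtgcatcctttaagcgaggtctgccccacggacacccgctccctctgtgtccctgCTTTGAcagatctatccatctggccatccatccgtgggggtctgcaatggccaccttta
Of all 35116 promoter windows, 4536 (12.9%) hold these letters. Among the 9 members with a window (WNT11 is named only), PORCN alone held them, so the letters were not in the printed windows of WLS and WNT5B. WLS, WNT5B and PORCN each have another window, not printed, and none of these other windows held the letters. For PORCN the window printed is the one with the letters, and the other lies at chrX:48508742-48509041. A match is a description of the letters and not a binding site.

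The libraries held 36268324 to 43347733 counts. All 10 members were among the 17355 genes that passed the filter on low counts, but to unequal depth: WNT3, WNT5A, WNT5B, PORCN and WLS had at least 10 counts in all 16 libraries, WNT4 in 15, WNT8A in 10, WNT3A in 9, WNT11 in 6 and WNT6 in 2. WNT6 passed through WNT_CPI alone, and WNT11 through WNT_CPI and E7_CPI, the groups where each is high. WNT3A and WNT8A reached 10 counts only in libraries given Wnt3a, and so passed only through groups where each is high. Calls of WNT6 and WNT11 in contrasts with those groups, and of WNT3A and WNT8A in contrasts of Wnt3a against its absence, are thus given as descriptions. The pluripotency genes POU5F1 (238 to 976 CPM), SOX2 (155 to 426 CPM) and LIN28A (1476 to 2736 CPM) were high in every library, as known of embryonic stem cells. The stromal genes DCN and LUM had 0 and at most 1 count. The collagen genes COL1A1 and COL1A2, listed with them, went the other way, with at least 41.9 and 60.3 CPM in every library. Whether stromal cells were present was not tested. CPM is the usual depth-scaled unit, taken from the scaled library total. NANOG was at 0.809 to 317 CPM and lowest in the groups collected under CPI-203. In WNT_ACT, the streak gene MIXL1 stood at 793 CPM in replicate 1 and 105 CPM in replicate 2, and in WNT_CPI_ACT at 66.7 and 2.44 CPM. The endoderm gene SOX17 stood at 41.5 and 7.54 CPM in WNT_ACT and at 5.98 and 0 CPM in WNT_CPI_ACT.

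The E7_CPI replicate 1 column stood apart and bears on every result below. As deposited its rows were out of step with the gene names beside them: its Spearman correlations with the other libraries reached at most 0.0066. With its values set against the names of the replicate 2 table, as done here, they were 0.954 to 0.986 and highest with E7_CPI replicate 2. The 2 E7_CPI libraries then differed by little more than sampling noise, with a mean chi-square per gene of 1.29 to 5.37 over 3 count ranges, against 5.05 to 332 in the other 7 groups. They may thus be 1 library deposited as 2 columns, and E7_CPI would then hold 1 library and the RNA data 15. The fit counts all 16, so its p-values for E7_CPI contrasts may be too small. For that reason E7_CPI values are given per library with no SD, tests of E7_CPI contrasts are set beside those without replicate 1, and member calls of other comparisons that end without it are named.

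**Figure D1:**
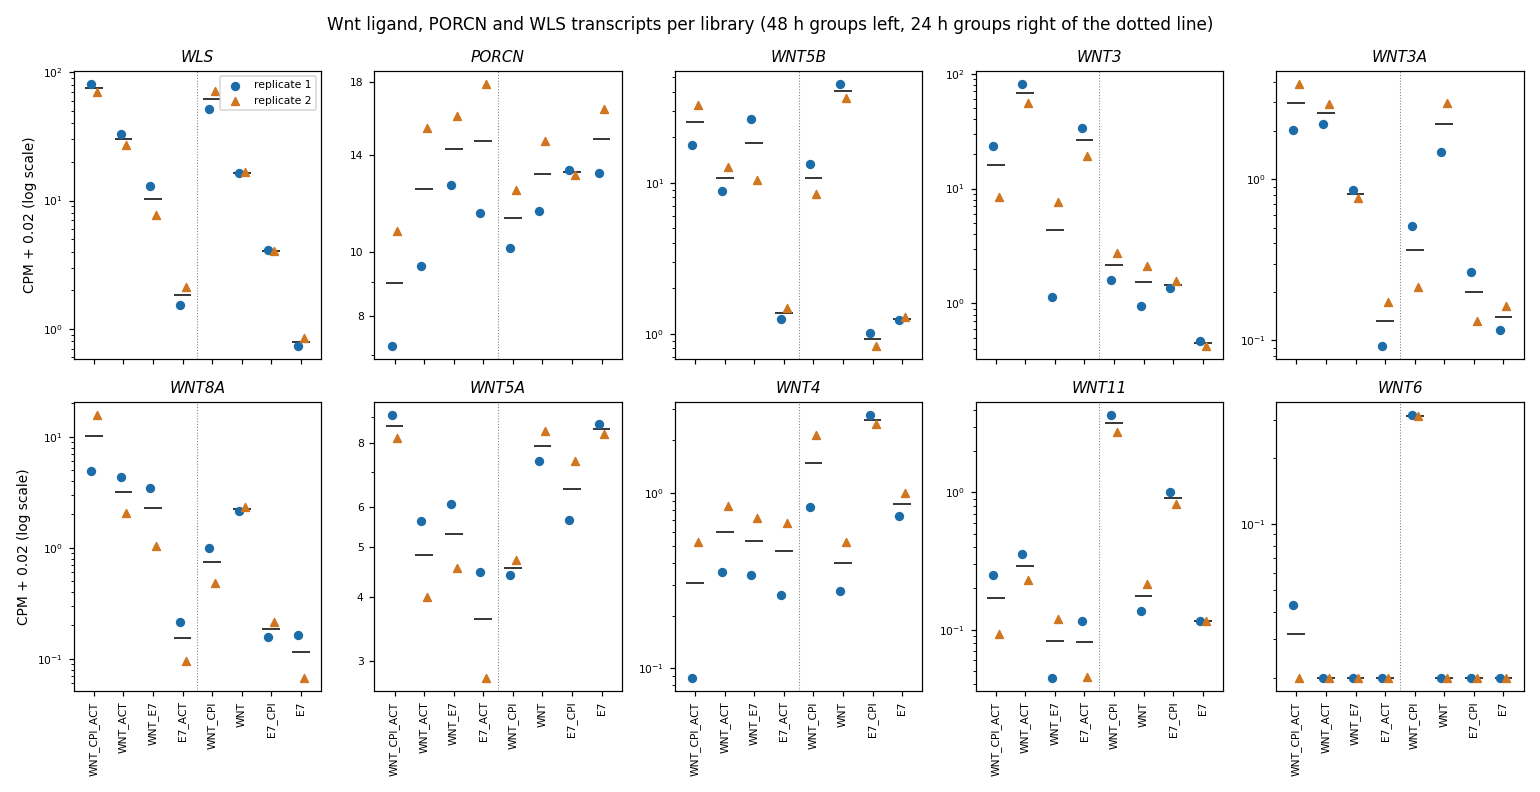
Transcript levels of the 10 members in each library, as CPM + 0.02 on a log axis, with 48 h groups left of the dotted line and 24 h groups right of it. Circles are replicate 1, triangles replicate 2 and bars the mean of the 2 libraries; WLS runs between 0.715 and 81.1 CPM over the libraries, whereas PORCN stays between 7.19 and 17.9 CPM.

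The first question was what Wnt3a did to the supply of Wnt ligands. After 1 day, WLS, WNT5B and WNT3A transcripts were higher in WNT than in E7 cells, and no member was called lower. These were 3 of the 9 members tested, against 0.605% of all genes (0.484% higher), a gene being called at an adjusted p under 0.05 in edgeR's quasi-likelihood test. Because the members were chosen with earlier results of these data known, no excess over all genes is read from this or later shares. Differences are given below on the log2 scale, each with a standard error (SE). Several contrasts share libraries, so their values are set side by side and not counted as independent. Whether groups overlapped is stated as a description only. With 2 libraries per group a gap between groups is easily met, and its share over all genes was not counted.

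WLS had 16.3 and 16.5 CPM in WNT, against 0.715 and 0.836 CPM in E7. The 2 groups lay far apart, with a log2 fold change of 4.40 (SE 0.30, adjusted p = 0.000193). WNT5B, a ligand of the non-canonical kind, had 45.2 and 36.2 CPM in WNT, against 1.22 and 1.27 CPM in E7. Its log2 fold change was 5.03 (SE 0.50, adjusted p = 0.00123), so that both E7 libraries were below both WNT libraries by a wide margin. WNT3A, a ligand that stabilises beta-catenin, had 62 and 105 counts in WNT, against 4 and 6 counts in E7. That is 1.45 and 2.94 CPM against 0.0953 and 0.143 CPM, and it rose by 4.16 (SE 0.63, adjusted p = 0.0167). WNT3A had passed the filter on low counts only through groups given Wnt3a. The edgeR fit of the compared groups alone did not call it (adjusted p = 0.21). The WNT3A call ended without E7 replicate 1 (0.22), E7 replicate 2 (0.177) or WNT replicate 2 (0.101).

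WNT8A, a ligand of early mesoderm in vertebrate embryos, had 90 and 82 counts in WNT, against 6 and 2 counts in E7. The groups did not overlap, but the log2 fold change of 4.48 (SE 0.90) missed the threshold (adjusted p = 0.0669). Fitted with the replicate number as a block, WNT8A was called (adjusted p = 0.0293), making 4 members against 1.72% of all genes. WNT3 had 0.938 and 2.10 CPM in WNT, against 0.453 and 0.406 CPM in E7 (log2 fold change 1.80, SE 0.88, adjusted p = 0.904). The groups did not overlap, but the 2 WNT libraries lay well apart from each other. The other 4 tested members, PORCN, WNT4, WNT5A and WNT11, had log2 fold changes between -1.16 and 0.68, and none was called. WNT6 had no count in either group.

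The same contrast was available under CPI-203 and after Activin A. In WNT_CPI against E7_CPI, 2 of 10 members were called (1 without E7_CPI replicate 1), against 0.386% of all genes. WLS had 51.5 and 71.1 CPM in WNT_CPI, against 4.06 and 4.04 CPM in E7_CPI. It rose by 3.92 (SE 0.28, adjusted p = 0.000152; 0.0105 without E7_CPI replicate 1). WNT5B had 13.2 and 8.39 CPM in WNT_CPI, against 0.988 and 0.809 CPM in E7_CPI. The groups did not overlap and it rose by 3.58 (SE 0.48, adjusted p = 0.00989), but the call ended without E7_CPI replicate 1 (0.18), E7_CPI replicate 2 (0.219) or WNT_CPI replicate 1 (0.0622). WNT3A had 20 and 8 counts in WNT_CPI, against 9 and 4 counts in E7_CPI (0.92, SE 0.64, adjusted p = 0.882). These groups overlapped, and without E7_CPI replicate 1 they did not (1.59, SE 0.86, adjusted p = 1). WNT11 had 148 and 113 counts in WNT_CPI, against 36 and 29 counts in E7_CPI (1.82, SE 0.50, adjusted p = 0.306; 1 without E7_CPI replicate 1). The replicate block called WNT11 (0.0431), making 3 members against 1.49% of all genes, but not without E7_CPI replicate 1 (0.321).

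In WNT_ACT against E7_ACT at 48 h, 4 of 9 members were called, all higher, against 3.84% of all genes (2.48% higher). Of these, WNT3A and WNT8A had passed the filter on low counts only through groups given Wnt3a. WLS had 33.0 and 26.9 CPM in WNT_ACT, against 1.51 and 2.10 CPM in E7_ACT (log2 fold change 4.05, SE 0.29, adjusted p = 0.000124). WNT3A had 85 and 111 counts in WNT_ACT, against 3 and 6 counts in E7_ACT (4.48, SE 0.64, adjusted p = 0.00507). WNT5B had 8.87 and 12.8 CPM in WNT_ACT, against 1.23 and 1.47 CPM in E7_ACT (3.0, SE 0.46, adjusted p = 0.00725). WNT8A had 167 and 77 counts in WNT_ACT, against 8 and 3 counts in E7_ACT (4.51, SE 0.87, adjusted p = 0.0199). For none of the 4 did the groups overlap, which adds little to the calls. The calls of WNT3A, WNT5B and WNT8A ended without E7_ACT replicate 1 (adjusted p = 0.0782, 0.0997 and 0.127). Those of WNT5B (0.0523) and WNT8A (0.135) also ended without E7_ACT replicate 2, and that of WNT8A ended without WNT_ACT replicate 1 (0.105). A fit of the compared groups alone called none of the 4. All 3 streak and 3 endoderm marker genes were called higher in this contrast as well, EOMES having 482 and 83.7 CPM in WNT_ACT, against 1.64 and 0.304 CPM in E7_ACT. Without E7_CPI replicate 1, EOMES and TBXT kept the call. The part of these cells in the result was not tested.

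**Figure D2:**
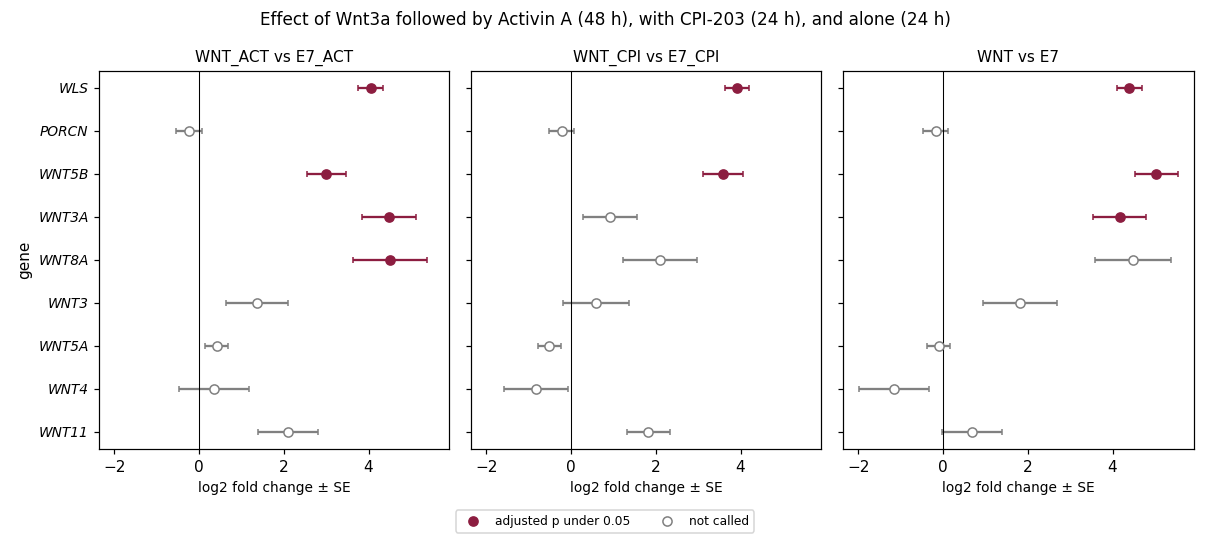
Log2 fold change ± SE of 9 members (rows) in the 3 contrasts of Wnt3a against its absence, from left WNT_ACT vs E7_ACT, WNT_CPI vs E7_CPI and WNT vs E7. Filled points have an adjusted p under 0.05; WLS and WNT5B are filled in all 3 panels, at 4.05, 3.92 and 4.40 for WLS, and PORCN sits near 0 in each. WNT6, with counts in few libraries, is left out.

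Whether CPI-203 altered the response to Wnt3a at 24 h was tested as an interaction. It was called for 0 of 9 members by edgeR's quasi-likelihood test, against 0.0115% of all genes. By unadjusted p, 2 members were under 0.05, and DESeq2 called 0. The largest of the 9 values was that of WNT3A, at -3.25 (SE 0.91, adjusted p = 0.995). For WLS the interaction was -0.48 (SE 0.37). Without E7_CPI replicate 1 the count was again 0, with -2.58 for WNT3A (SE 1.13, adjusted p = 1) and -0.48 for WLS (SE 0.44).

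CPI-203 raised WLS whether or not Wnt3a was present, and raised WNT11, while 3 of the other ligands were called lower in WNT_CPI than in WNT. The interaction called no member, so this lowering is not shown to depend on Wnt3a. In WNT_CPI against WNT, 6 of 10 members were called, 3 higher and 3 lower, against 31.0% of all genes (13.0% higher and 17.9% lower). Of the 3 higher, WNT6 and WNT11 had passed the filter on low counts through groups collected under CPI-203. In E7_CPI against E7, 2 of 9 were called, both higher, against 32.7% (15.0% higher), and 2 without E7_CPI replicate 1. With so many genes called in both contrasts, nothing particular to the Wnt genes is read from these counts.

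WLS had 51.5 and 71.1 CPM in WNT_CPI, against 16.3 and 16.5 CPM in WNT, a rise of 1.90 (SE 0.26, adjusted p = 0.000356). It had 4.06 and 4.04 CPM in E7_CPI, against 0.715 and 0.836 CPM in E7, a rise of 2.38 (SE 0.29, adjusted p = 0.000183; 0.00207 without E7_CPI replicate 1). The order of the groups by WLS level was WNT_CPI_ACT (81.1 and 70.3 CPM), WNT_CPI, WNT_ACT, WNT, WNT_E7 (12.9 and 7.68 CPM), E7_CPI, E7_ACT and E7. Among neighbours in that order, WNT_CPI_ACT and WNT_CPI overlapped, and the libraries of the other neighbouring groups did not.

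WNT11, a ligand of convergent cell movements in vertebrate gastrulation, had 148 and 113 counts in WNT_CPI, against 5 and 7 counts in WNT. It rose by 4.34 (SE 0.59, adjusted p = 0.000366). It had 36 and 29 counts in E7_CPI, against 4 and 4 counts in E7, a rise of 3.19 (SE 0.62, adjusted p = 0.00293; 0.0209 without E7_CPI replicate 1). Every library collected under CPI-203 had at least 29 counts of WNT11, and every other library had at most 13. WNT6, which promotes the epithelial form of somites in chick, had 12 counts in each WNT_CPI library and 0 counts in WNT, E7_CPI and E7. Its level in WNT_CPI was at least 3.8-fold higher than in WNT, taking 3 counts per library as the floor. Its adjusted p of 0.0211 was 0.482 in DESeq2, 0.0739 without WNT replicate 1 and 0.0663 without WNT replicate 2.

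Of the ligands that Wnt3a had raised, WNT5B had 13.2 and 8.39 CPM in WNT_CPI, against 45.2 and 36.2 CPM in WNT, and fell by 1.91 (SE 0.43, adjusted p = 0.00662). The call ended without WNT_CPI replicate 2 (0.0624). WNT3A had 0.490 and 0.195 CPM in WNT_CPI, against 1.45 and 2.94 CPM in WNT, and fell by 2.67 (SE 0.56, adjusted p = 0.00463). WNT8A had 40 and 19 counts in WNT_CPI, against 90 and 82 counts in WNT. The groups did not overlap, but its log2 fold change of -1.61 (SE 0.72) had an adjusted p of 0.121. WNT5A, the closest paralogue of WNT5B, had 4.38 and 4.70 CPM in WNT_CPI, against 7.36 and 8.39 CPM in WNT, and fell by 0.79 (SE 0.27, adjusted p = 0.0427). This smallest call ended without any 1 of its 4 libraries (0.0839 to 0.171), without E7_CPI replicate 1 (0.054) and without the filter on low counts (0.0525).

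WNT4, a ligand needed for kidney and female gonad development in mouse, was not called. It had 33 and 87 counts in WNT_CPI, against 11 and 18 counts in WNT (log2 fold change 1.95, SE 0.82, adjusted p = 0.0968). With the replicate block the adjusted p was 0.00931, and 7 members were called there, against 47.4% of all genes. It had 100 and 88 counts in E7_CPI, against 30 and 41 counts in E7 (1.61, SE 0.77, adjusted p = 0.134; 0.31 without E7_CPI replicate 1). The replicate block gave 0.00785 there, with 3 members called against 50.8% of all genes, and 0.102 without E7_CPI replicate 1. In both contrasts the groups did not overlap. WNT3 had 1.34 and 1.53 CPM in E7_CPI, against 0.453 and 0.406 CPM in E7 (1.74, SE 0.88, adjusted p = 0.157; 0.271 without E7_CPI replicate 1).

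**Figure D3:**
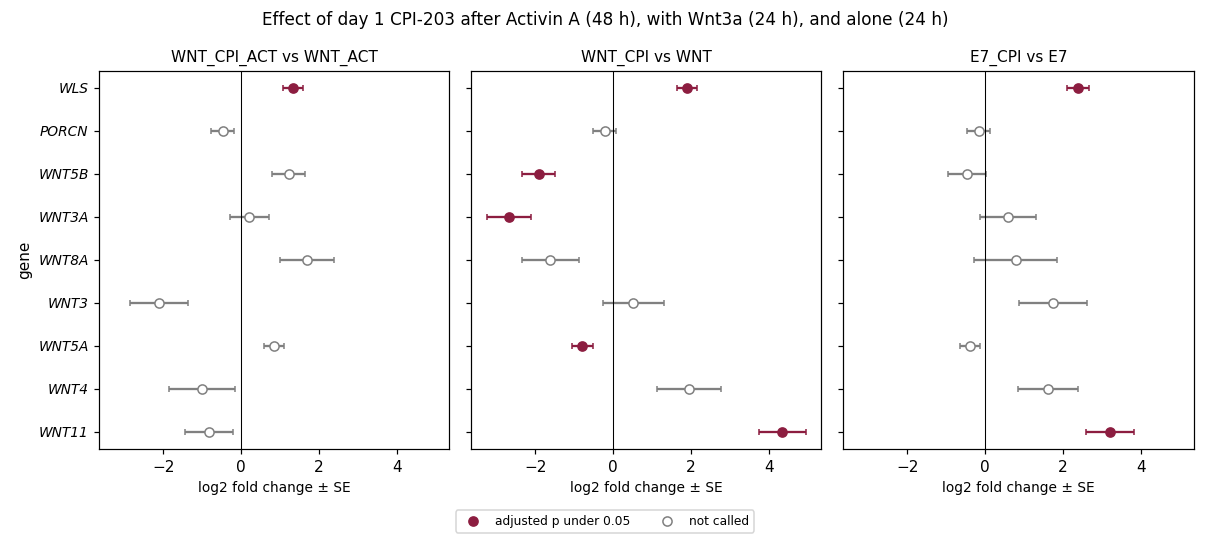
Log2 fold change ± SE of 9 members (rows) in the 3 contrasts of CPI-203 against its absence, from left WNT_CPI_ACT vs WNT_ACT, WNT_CPI vs WNT and E7_CPI vs E7. Filled points have an adjusted p under 0.05; WLS is filled in all 3 panels (1.34, 1.90 and 2.38), and WNT11 lies at -0.83, 4.34 and 3.19.

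The effect of day 1 CPI-203 was also read at 48 h, after a day of Activin A. In WNT_CPI_ACT against WNT_ACT, 1 of 10 members was called, against 5.90% of all genes. WLS had 81.1 and 70.3 CPM in WNT_CPI_ACT, against 33.0 and 26.9 CPM in WNT_ACT. It rose by 1.34 (SE 0.25, adjusted p = 0.014), and the call ended without WNT_CPI_ACT replicate 1 (0.0534) or WNT_ACT replicate 2 (0.0957). WNT3 had 23.2 and 8.49 CPM in WNT_CPI_ACT, against 81.4 and 55.5 CPM in WNT_ACT. The groups did not overlap, and the log2 fold change of -2.11 (SE 0.74) had an adjusted p of 0.138, or 0.0366 in DESeq2. WNT5A had 9.03 and 8.15 CPM in WNT_CPI_ACT, against 5.61 and 3.98 CPM in WNT_ACT (0.84, SE 0.27, adjusted p = 0.0979). A replicate block gave a call (0.0365), making 2 members against 15.1% of all genes. WNT11, with 10 and 3 counts in WNT_CPI_ACT, against 13 and 8 counts in WNT_ACT, was low in both groups. MIXL1 and SOX17 also differed between these groups and between their replicates, and their part was not tested.

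The difference between the 48 h and the 24 h effect of CPI-203 was tested directly. It was called for 4 of 9 members, against 13.3% of all genes. Of these, WNT11 had passed the filter on low counts through WNT_CPI and E7_CPI, so its call is a description. For WNT11 the difference was -5.17 (SE 0.85, adjusted p = 0.00327), the 48 h effect being -0.83 and the 24 h effect 4.34. For WNT5B it was 3.14 (SE 0.60, adjusted p = 0.00707), with effects of 1.22 at 48 h and -1.91 at 24 h. For WNT5A it was 1.63 (SE 0.38, adjusted p = 0.0163), with effects of 0.84 and -0.79. For WNT3A it was 2.88 (SE 0.74, adjusted p = 0.0279), with effects of 0.21 and -2.67. The WNT5A call ended without WNT_CPI replicate 1 (0.0577), WNT replicate 2 (0.0566) or WNT_ACT replicate 2 (0.0528). The WNT3A call ended without WNT_ACT replicate 1 (0.0867) or 2 (0.0511), WNT replicate 2 (0.105), WNT_CPI replicate 2 (0.105) or WNT_CPI_ACT replicate 2 (0.0915). With the replicate block WNT4 (-2.94, adjusted p = 0.0137) and WNT8A (3.5, adjusted p = 0.0163) were called as well, making 6 members against 26.9% of all genes. For WLS the difference was -0.56 (SE 0.35, adjusted p = 0.369).

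WNT_CPI_ACT, in which CPI-203 and Wnt3a came first and Activin A followed, was also set against WNT_CPI at 24 h. Time, Activin A and the end of CPI-203 and Wnt3a cannot be told apart in this contrast. Here 6 of 10 members were called, 4 higher and 2 lower, against 26.9% of all genes (14.9% higher and 12.0% lower). The 2 lower were WNT6 and WNT11, which had passed the filter on low counts through groups collected under CPI-203. WNT11 had 10 and 3 counts in WNT_CPI_ACT, against 148 and 113 counts in WNT_CPI, and fell by 4.36 (SE 0.59, adjusted p = 0.000429). WNT6 had 1 and 0 counts in WNT_CPI_ACT, against 12 and 12 counts in WNT_CPI (adjusted p = 0.035, but 0.0789 and 0.12 without WNT_CPI_ACT replicate 1 and 2). WNT8A had 4.88 and 15.6 CPM in WNT_CPI_ACT, against 0.980 and 0.462 CPM in WNT_CPI, and rose by 3.82 (SE 0.76, adjusted p = 0.00396). WNT3A had 2.02 and 3.89 CPM in WNT_CPI_ACT, against 0.490 and 0.195 CPM in WNT_CPI, and rose by 3.10 (SE 0.56, adjusted p = 0.00237). The called rises of WNT3 (2.88, SE 0.79, adjusted p = 0.0202) and WNT5A (0.92, SE 0.27, adjusted p = 0.0255) were less steady. That of WNT3 ended without WNT_CPI replicate 1 (0.129), WNT_CPI replicate 2 (0.0716) or WNT_CPI_ACT replicate 1 (0.132), and that of WNT5A without any 1 of its 4 libraries (0.0575 to 0.122). With the replicate block WNT4 (adjusted p = 0.00326) and WNT5B (adjusted p = 0.0257) were called too, making 8 members against 42.7% of all genes. WLS, at 81.1 and 70.3 CPM in WNT_CPI_ACT and 51.5 and 71.1 CPM in WNT_CPI, overlapped between the groups. MIXL1, at 66.7 and 2.44 CPM in WNT_CPI_ACT, against 3.75 and 3.02 CPM in WNT_CPI, differed widely between the WNT_CPI_ACT replicates, and its part was not tested.

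WNT3, among the members called in WNT_CPI_ACT against WNT_CPI, was called as well in both other contrasts of an Activin A group at 48 h with a 24 h group. It had 33.8 and 19.2 CPM in E7_ACT, against 0.453 and 0.406 CPM in E7, and 81.4 and 55.5 CPM in WNT_ACT, against 0.938 and 2.10 CPM in WNT. In both pairs the Activin A libraries lay far above the others. WNT3 was the only 1 of 9 members called in E7_ACT against E7 (5.94, SE 0.93, adjusted p = 0.0221), against 0.599% of all genes. It was likewise the only 1 of 9 in WNT_ACT against WNT (5.50, SE 0.88, adjusted p = 0.0173), against 1.68% of all genes. The first call ended without any 1 of its 4 libraries (0.0524 to 0.263). The second ended without WNT replicate 1 (0.189), WNT replicate 2 (0.133) or WNT_ACT replicate 1 (0.0954). Time and Activin A cannot be told apart in these 2 contrasts, nor, in WNT_ACT against WNT, can the end of Wnt3a after day 1. MIXL1 was at 4.57 and 3.98 CPM in E7_ACT, against 0.477 and 0.573 CPM in E7, and at 793 and 105 CPM in WNT_ACT, against 1.34 and 1.71 CPM in WNT, and its part was not tested.

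Activin A was separated from time by WNT_ACT against WNT_E7, both at 48 h. Only WLS was called among 9 members, against 0.882% of all genes. It had 33.0 and 26.9 CPM in WNT_ACT, against 12.9 and 7.68 CPM in WNT_E7, a rise of 1.54 (SE 0.26, adjusted p = 0.0314). The call ended without E7_CPI replicate 1 (0.0699), WNT_ACT replicate 1 (0.229), WNT_E7 replicate 1 (0.109) or WNT_E7 replicate 2 (0.102). WNT3 had 81.4 and 55.5 CPM in WNT_ACT, against 1.11 and 7.63 CPM in WNT_E7 (3.97, SE 0.81, adjusted p = 0.0528). The replicate block called it (0.014), making 2 members against 4.45% of all genes. The groups did not overlap, though the WNT_E7 libraries differed widely from each other. Among the streak and endoderm markers, MIXL1 and EOMES were called higher too (adjusted p = 0.0421 and 0.0476; 0.0858 and 0.0961 without E7_CPI replicate 1). MIXL1 had 793 and 105 CPM in WNT_ACT, against 0.494 and 2.39 CPM in WNT_E7, and EOMES had 482 and 83.7 CPM in WNT_ACT, against 8.5 and 2.86 CPM in WNT_E7. Their part in the WLS and WNT3 values was not tested. In WNT_E7 against WNT, a day without added ligand, edgeR's test called 0 of 9 members, against 0% of all genes. By unadjusted p, 3 were under 0.05, and DESeq2 called 0.

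Of the other members in the Activin A contrasts, WNT5B had 8.87 and 12.8 CPM in WNT_ACT, against 45.2 and 36.2 CPM in WNT (log2 fold change -1.91, SE 0.43, adjusted p = 0.0561). It was called with the replicate block (0.0185), making 2 members against 6.44% of all genes. WNT5A had 4.45 and 2.76 CPM in E7_ACT, against 8.70 and 8.29 CPM in E7 (-1.24, SE 0.27, adjusted p = 0.0803). Under the replicate block it passed (0.0214), making 2 members against 2.79% of all genes. In neither did the groups overlap. WNT4 was low throughout at 48 h, with 3 and 21 counts in WNT_CPI_ACT, 13 and 31 in WNT_ACT, 13 and 28 in WNT_E7 and 10 and 26 in E7_ACT, and these 4 groups overlapped.

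The order of the groups differed from ligand to ligand. By WNT5B level it was WNT, WNT_CPI_ACT (17.8 and 32.7 CPM), WNT_E7 (26.3 and 10.3 CPM), then WNT_CPI and WNT_ACT at the same mean, and E7_ACT, E7 and E7_CPI. The 5 groups given Wnt3a all lay above the 3 groups without it, the nearest libraries being 8.39 CPM in WNT_CPI and 1.47 CPM in E7_ACT. By WNT8A level, the highest libraries were those of WNT_CPI_ACT (4.88 and 15.6 CPM), and again every library given Wnt3a (lowest 0.462 CPM in WNT_CPI) lay above every library without it (highest 0.195 CPM in E7_CPI). WNT5A had a narrow range, with its highest library in WNT_CPI_ACT (9.03 CPM) and its lowest in E7_ACT (2.76 CPM).

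PORCN was not called in any of the 13 comparisons by the fit of all groups. It was called lower in WNT_CPI_ACT, at 7.19 and 10.7 CPM, against 9.51 and 15.4 CPM in WNT_ACT, by the replicate block without E7_CPI replicate 1 (-0.47, SE 0.14, adjusted p = 0.0365). The block with all libraries gave an adjusted p of 0.0934, and the fit of all groups 0.483. Its log2 fold changes between groups ran from -0.47 in WNT_CPI_ACT against WNT_ACT to 0.13 in WNT_E7 against WNT, with an SE of about 0.30. The lowest library was WNT_CPI_ACT replicate 1 (7.19 CPM) and the highest E7_ACT replicate 2 (17.9 CPM). Replicate 2 was above replicate 1 in 7 groups, the exception being E7_CPI (13.3 and 13.0 CPM). A p that misses the threshold does not show that PORCN was the same in all groups.

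WNT3 lies next to another ligand gene, WNT9B, in the RefSeq annotation. WNT9B had 1.40 and 0.962 CPM in E7_ACT, against 0.0238 and 0.191 CPM in E7, and 3.15 and 1.61 CPM in WNT_ACT, against 0.117 and 0.0839 CPM in WNT. It was called in the second contrast (4.51, SE 0.88, adjusted p = 0.0333; 0.0687 without E7_CPI replicate 1). WNT9B was also called with CPI-203, at 1.03 and 1.85 CPM in WNT_CPI, against 0.117 and 0.0839 CPM in WNT (3.79, SE 0.88, adjusted p = 0.00791). The 2 groups lay apart. Whether WNT9B and WNT3 differed in this was not tested. WNT3 also overlaps LRRC37A2, which had 454 to 784 counts in every library. GNG12-AS1, which overlaps WLS, had 0 to 32 counts over the libraries, the most in WNT_CPI replicate 1. WNT10A, which overlaps WNT6, had 0 to 3 counts, the most in WNT_CPI replicate 2. Strandedness of the counting is not given in the sources used here, so reads of overlapping genes cannot be told apart.

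**Figure D4:**
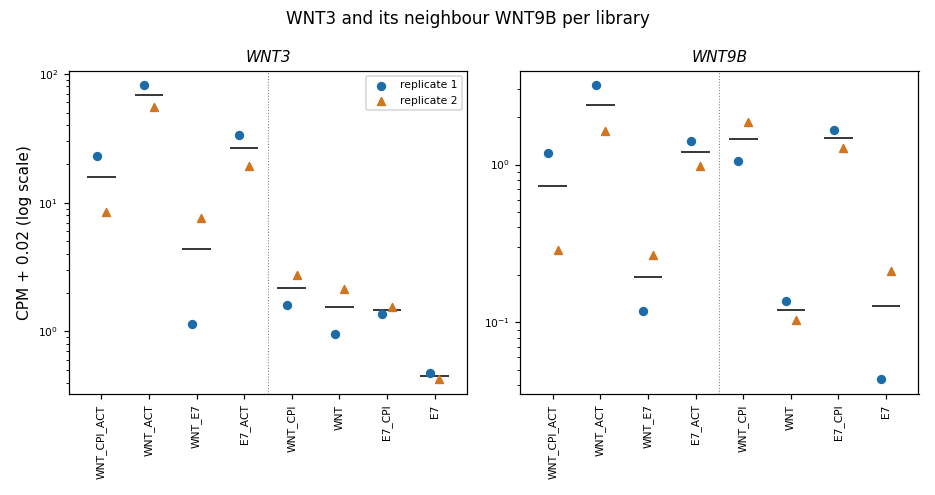
CPM + 0.02 of WNT3 (left) and WNT9B (right) in each library on log axes, with 48 h groups left of the dotted line and 24 h groups right of it; circles are replicate 1, triangles replicate 2 and bars the mean of the 2 libraries. Both genes have their highest group mean in WNT_ACT (81.4 and 55.5 CPM for WNT3, 3.15 and 1.61 CPM for WNT9B). In E7_ACT, WNT3 is at 33.8 and 19.2 CPM and WNT9B at 1.40 and 0.962 CPM, and WNT9B was not called there against E7. WNT9B also stands at 1.03 and 1.85 CPM in WNT_CPI and at 1.65 and 1.25 CPM in E7_CPI.

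The remaining Wnt genes were sparse. Of 11 further WNT genes, 6 passed the filter. In WNT_CPI against WNT, 2 were called, both higher: WNT9B and WNT9A, which had 7.62 and 9.93 CPM in WNT_CPI, against 1.80 and 1.88 CPM in WNT (2.25, SE 0.32, adjusted p = 0.000441). That compares with 31.0% of all genes (13.0% higher). In E7_CPI against E7, 3 were called, all higher, against 32.7% of all genes (15.0% higher). They were WNT9A (2.11, adjusted p = 0.00067; 0.00396 without E7_CPI replicate 1), WNT9B (3.72, adjusted p = 0.00777; 0.0395 without it) and WNT10B (3.65, adjusted p = 0.013; 0.0545 without it). Over all 6 further WNT genes that passed the filter, called or not, the median log2 fold change was 1.56 in WNT_CPI against WNT. It was 1.16 in E7_CPI against E7. Over all genes tested these medians were -0.01 and -0.05. WNT7B, on chromosome 22, was not analysed here, since 625 of the 626 genes on that chromosome had no count.

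Among 10 genes of WLS export and recycling, the retromer subunits VPS26A, VPS26B and VPS35 were called higher in WNT_CPI than in WNT. These 3 of 10 were all higher, against 13.0% of all genes called higher (31.0% called either way). The list was chosen with earlier results of these data known, so no excess is read from this. VPS29, the other retromer subunit on the list, had 47.7 and 43.4 CPM in WNT_CPI, against 41.7 and 36.5 CPM in WNT, and was not called (0.22, SE 0.22, adjusted p = 0.503). VPS26A had 136 and 112 CPM in WNT_CPI, against 70.0 and 59.9 CPM in WNT (0.93, SE 0.22, adjusted p = 0.008). VPS35 had 166 and 163 CPM in WNT_CPI, against 107 and 97.7 CPM in WNT (0.68, SE 0.16, adjusted p = 0.00836). The same 3 were called higher in E7_CPI against E7, against 32.7% of all genes (15.0% higher). Without E7_CPI replicate 1, VPS26A lost its call there (adjusted p = 0.134), and VPS26B (0.0445) and VPS35 (0.0385) did not. In each of the 3 Wnt3a contrasts edgeR's test called 0 of the 10, with 0 at an unadjusted p under 0.05, and DESeq2 called 0.

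Among 18 Wnt antagonists, 17 were tested. In WNT_CPI against WNT, 2 were called higher and 5 lower, against 13.0% and 17.9% of all genes. The higher ones were DKK2, with 13 and 16 counts in WNT_CPI, against 1 and 0 counts in WNT (adjusted p = 0.0124), and SFRP1. SFRP1 had 207 and 211 CPM in WNT_CPI, against 115 and 76.5 CPM in WNT (1.13, SE 0.35, adjusted p = 0.0299). SFRP2, which binds ligands outside the cell, had 198 and 258 CPM in WNT_CPI, against 676 and 778 CPM in WNT (-1.67, SE 0.25, adjusted p = 0.000632). TRABD2B, a protease that cuts Wnt ligands, had 1.35 and 2.02 CPM in WNT_CPI, against 7.03 and 7.47 CPM in WNT. In WNT against E7 only SFRP1 was called, against 0.605% of all genes. It had 115 and 76.5 CPM in WNT, against 793 and 735 CPM in E7, and fell by 3.0 (SE 0.37, adjusted p = 0.00534).

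Among 6 co-receptors and polarity proteins of the WNT5 branch, ROR2 and VANGL1 (1.5, SE 0.30, adjusted p = 0.022) were called higher in WNT_ACT than in E7_ACT, against 3.84% of all genes. ROR2, a receptor for WNT5A, had 85.9 and 39.5 CPM in WNT_ACT, against 11.3 and 17.0 CPM in E7_ACT (2.15, SE 0.31, adjusted p = 0.00553). In WNT_CPI against WNT, 1 of the 6 was called higher and 1 lower, against 13.0% and 17.9% of all genes. PTK7, a receptor-like protein of planar polarity, had 365 and 379 CPM in WNT_CPI, against 242 and 296 CPM in WNT (0.47, SE 0.15, adjusted p = 0.0412; 0.0665 without E7_CPI replicate 1). VANGL2, a planar polarity protein, had 73.9 and 90.7 CPM in WNT_CPI, against 153 and 180 CPM in WNT, and fell by 1.02 (SE 0.18, adjusted p = 0.00181). These are bulk samples, in which fewer cells of a type and less RNA per cell cannot be told apart.

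By Pearson's r of log2 CPM over the 16 libraries, which share groups and replicate numbers, genes among the most like a member were named out of 13968 genes. For WLS they were EGFLAM (0.970), GAD1 (0.947) and ERICH2 (0.945). For WNT5B they included FST (0.948) and SP8 (0.935), and for WNT3 they were LEFTY2 (0.925), GPC6 (0.915) and PANCR (0.901). For WNT3A they included the member WNT8A (0.916) and CRTC3 (0.913). These are descriptions of 8 group levels and no test.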

How the data were processed

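The authors deposited unnormalised RNA counts by gene, with 1 table for each replicate number. Builds hg38 and hg19 and the tools Bowtie2, featureCounts, MACS2, deepTools and DESeq2 are named in the submitters' processing notes. The aligner and build of the RNA counts are not given in the sources used here. The 27348 genes in both tables were joined by gene ID, and the values of the E7_CPI replicate 1 column were matched to gene names by their order in the replicate 2 table.

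A single edgeR model (version 4.0.16, with limma 3.58.1 and R 4.3.3) covered 8 groups and 16 libraries, with 8 residual degrees of freedom. Genes were filtered with filterByExpr and libraries scaled by TMM, whose factors lay between 0.948 and 1.049. The 2-sided quasi-likelihood test was adjusted by Benjamini-Hochberg over the 17355 genes kept, with calls at adjusted p under 0.05. The SE is the log2 fold change divided by the square root of F, and CPM use TMM-scaled totals. The fit was tested on simulated data. Members were named whatever their result, and list genes for their calls. The members and lists were chosen with earlier results of these data known.

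Alternatives were a replicate block, other scalings (RLE and library totals), no filter or a stricter one, the compared groups alone, DESeq2 1.42.0, and leaving out each library. Libraries of the same number deviated together from their group means, so the numbers pair the groups other than E7_CPI. For the 21 pairs of those groups r was between 0.403 and 0.761. The fit of all groups leaves this pairing out. Calls and misses are those of that fit unless another is named, with block results for members beside them where a call differed. In the 7 pairs with E7_CPI r was -0.076 to -0.034, so its replicate 1 is not paired, and the block is no pairing in E7_CPI contrasts. The ATAC peak positions, in a build other than the RefSeq windows, were not used here. Some genes among those most like a member are not reported here.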

Additional observations from a re-analysis of the deposited data

Results flagged for a closer look

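The effect of CPI-203, given on day 1 with Wnt3a, differed between 48 h (WNT_CPI_ACT against WNT_ACT) and 24 h (WNT_CPI against WNT) for 4 of 9 tested members, by the test of the difference itself in edgeR's quasi-likelihood fit. The difference was -5.166 for WNT11, 3.138 for WNT5B, 2.879 for WNT3A and 1.634 for WNT5A, in log2 units. WNT11 had passed the filter on low counts through WNT_CPI and E7_CPI, where it is high, so its value is a description. Both 48 h groups of this contrast had also seen Activin A, and CPI-203 and Wnt3a were given on day 1 alone. Time, Activin A and the end of CPI-203 and Wnt3a cannot be told apart here.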

How the results depend on the processing

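No called member value turned its direction under any alternative run. Of 1592 alternative values, 1474 stayed on their side of the threshold, 50 came past it and 68 lost it. The edgeR fit of the compared groups alone did not call WNT3A in the 48 h vs 24 h difference (adjusted p = 0.103). It also did not call WNT5A in WNT_CPI vs WNT (0.0623), nor WNT5A (0.0795) and WNT6 (0.0521) in WNT_CPI_ACT vs WNT_CPI. DESeq2 did not call WNT6 in WNT_CPI_ACT vs WNT_CPI (adjusted p = 0.624). The 2 libraries per group limit every call. WNT6 and, outside the CPI-203 groups, WNT11 rest on few counts.

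Counts of members called that moved by over 1.5 times were as follows. With the compared groups alone there were 4 in E7_CPI vs E7 (2 in the fit of all groups), 1 in WNT_CPI vs E7_CPI (2), 0 in WNT_ACT vs E7_ACT (4), and 0 in WNT_ACT vs WNT_E7, WNT_CPI_ACT vs WNT_ACT and WNT_ACT vs WNT (1 each). With the replicate block there were 2 in WNT_ACT vs WNT_E7, WNT_CPI_ACT vs WNT_ACT, E7_ACT vs E7 and WNT_ACT vs WNT (1 each without it). The block ended no call and brought 12 member values past the threshold. With the replicate block and without E7_CPI replicate 1, chosen after the data were seen, there were 1 in WNT_CPI vs E7_CPI, 3 in WNT_ACT vs WNT_E7, 4 in WNT_CPI_ACT vs WNT_ACT, 2 in E7_ACT vs E7 and 3 in WNT_ACT vs WNT. DESeq2 called 2, 4, 3 and 3 in the same last 4 comparisons, and no filter gave 2 in WNT_ACT vs WNT_E7. The cause was not tested.

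Leaving out 1 library at a time gave 2 to 5 called in the 48 h vs 24 h difference, 3 to 6 in WNT_CPI_ACT vs WNT_CPI, 3 to 5 in WNT_CPI vs WNT, 1 to 4 in WNT_ACT vs E7_ACT, 2 to 3 in WNT vs E7, 2 in E7_CPI vs E7, 1 to 2 in WNT_CPI vs E7_CPI and 0 to 1 in E7_ACT vs E7, WNT_ACT vs WNT, WNT_ACT vs WNT_E7 and WNT_CPI_ACT vs WNT_ACT. It gave 0 in WNT_E7 vs WNT and in the interaction.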
